A study of Homo sapiens with 6 samples.

Results

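The genes described here are 38 enzymes of nucleotide synthesis and folate metabolism, followed in DND41 cells. They were chosen as a list of gene symbols by their place in the pathways, with earlier results of these data known. A listed gene was kept where its mean over the 6 libraries was at least 10 normalized counts, the values that the authors deposited. All 38 of the 38 listed genes met this, among 17202 genes in the table and 13465 at that level, and the lowest mean of a member was 564 normalized counts (APRT). DND41 is an established human line of T-cell acute lymphoblastic leukaemia, so every library comes from a single line. RNA-seq libraries of total RNA were made from 3 samples treated for 24 h with MB1-47, which the series title calls a mitochondrial uncoupler, and from 3 treated for 24 h with its solvent DMSO. The labels give the MB1-47 dose as 4 mM, a unit repeated as written there. They say that cells were plated in triplicate and nothing more about how separate the replicates were, so a p-value here reflects only how far these libraries vary, which may be technical.

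Cells build purine nucleotides stepwise on activated ribose (PRPP) until the ring of inosine monophosphate (IMP) is complete, and IMP is then turned into AMP or GMP. The pyrimidine ring is built first and joined to PRPP afterwards, giving UMP and then CTP. Ribonucleotide reductase turns ribonucleotides into the deoxynucleotides of DNA, and thymidylate is made from deoxyuridylate with a carbon unit carried by folate. Folate also supplies carbons to the purine ring. Salvage enzymes recover free bases and nucleosides. Dividing T cells and T-cell leukaemias draw on these pathways heavily, and several of the enzymes are targets of drugs used against leukaemia.

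The sequences shown first are those at the shared start region of a pair of purine genes and those around a motif that several of the promoters hold. PPAT, which starts the purine ring, lies at chr4:56393362-56435615 on the minus strand, and PAICS, which acts later in the same chain, at chr4:56435741-56464579 on the plus strand (GENCODE 29, GRCh38). Their start sites face away from each other, 126 bases apart. The 125 bases between the start sites, at chr4:56435616-56435740, are given on the minus strand from the reference (GRCh38), in lower case throughout. They have 76% G and C, and hold neither CACGTG nor CCAAT on either strand.
PPAT-PAICS intergenic: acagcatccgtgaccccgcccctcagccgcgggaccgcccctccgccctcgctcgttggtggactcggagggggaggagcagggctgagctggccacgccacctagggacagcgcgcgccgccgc

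CACGTG is an E-box, the letters bound by MYC with MAX and by other factors of the same class, and it reads the same on both strands. It was searched on both strands in RefSeq windows (GRCh38.p14) from 250 bases before to 50 after the start that RefSeq's table gives for the gene. A window was given for 34 of the 38 members, and ADSL, IMPDH2, RRM2B and MTRR had none. The window's start was within 1 kb of the GENCODE start in 28 members and 1 to 10 kb from it in 4 (DCK, PFAS, RRM2 and TK2). It was 25.2 kb away for PAICS and 43.9 kb for MTHFD2L, so the start of PAICS that faces PPAT was not searched as a PAICS window. The motif was in 6 of the 34 windows (17.6%), against 10.1% of the 10072 tested genes with a window and 7.43% of all 27305 windows. The motif of the PPAT window lies 51 bases past the GENCODE start of PAICS, inside that gene. The GENCODE starts of ATIC (215311817), DCK (70992538) and MTHFD1 (64388031) lie before their motifs below, which are thus inside those genes. The GENCODE start of DHODH (72008588) lies within its stretch. Each stretch below has 20 bases on the gene's own strand with the motif in capitals and its distance from the RefSeq start, shown because these are the members that hold it.
PPAT, chr4:56435785-56435804, minus strand, 182 bases before the start: agatttcCACGTGcagcaaa
ATIC, chr2:215312006-215312025, plus strand, 46 bases before the start: ggcgggcCACGTGataagcc
ATIC, chr2:215312081-215312100, plus strand, 29 bases after the start: acctgcgCACGTGgtgccgc
DHODH, chr16:72008578-72008597, plus strand, 159 bases before the start: tactgcgCACGTGcacccaa
DCK, chr4:70993526-70993545, plus strand, 116 bases before the start: cggccttCACGTGacctggc
NME1, chr17:51153586-51153605, plus strand, 34 bases after the start: tgcgaacCACGTGggtcccg
MTHFD1, chr14:64388331-64388350, plus strand, 15 bases before the start: ccctaagCACGTGggttggg

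Of these 6 genes, 5 were lower with MB1-47 and DCK was higher, as given below. The motif was thus in 5 of the 27 windows of lower members. Other motifs searched on both strands were the CCAAT box, in 13 of the 34 windows (38.2%, against 37.2% of tested genes), and the E2F-type letters TTTCCCGC, in 3 windows (8.82% against 2.67%), and TTTGGCGC, in 1 (2.94% against 1.11%). Among the 27 windows of lower members, 12 held CCAAT, 2 held TTTCCCGC and 0 held TTTGGCGC, whose 1 window was that of DCK. None of these motifs contains another. A match describes the letters only, and no binding was measured.

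With MB1-47, each of the steps held transcripts that were lower. Of the 38 members, 29 were lower and 3 were higher past an adjusted p of 0.05 (limma on log2(value + 1), adjusted over all 13465 genes), and 6 did not pass. Over all genes tested, 19.8% were lower and 18.3% were higher (2667 and 2458 genes; 2063 and 3335 where libraries were scaled to equal totals, which moved the median of all genes from 0.02 to 0.15 on the log2 scale). At least 2-fold lower were 17 members, where 5.99% of all genes tested were. The median log2 fold change of the members was −0.96, against 0.02 over all genes tested. Members ran from −2.78 (NME1) to 1.28 (TK2). The groups did not overlap in 34 members, with all MB1-47 libraries below all DMSO libraries in 30 and above them in 4, and 49.3% of all genes tested had groups that did not overlap. Without DMSO replicate 1, which lay away from the others of its group, 28 members were lower and 2 higher.

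**Figure D1:**
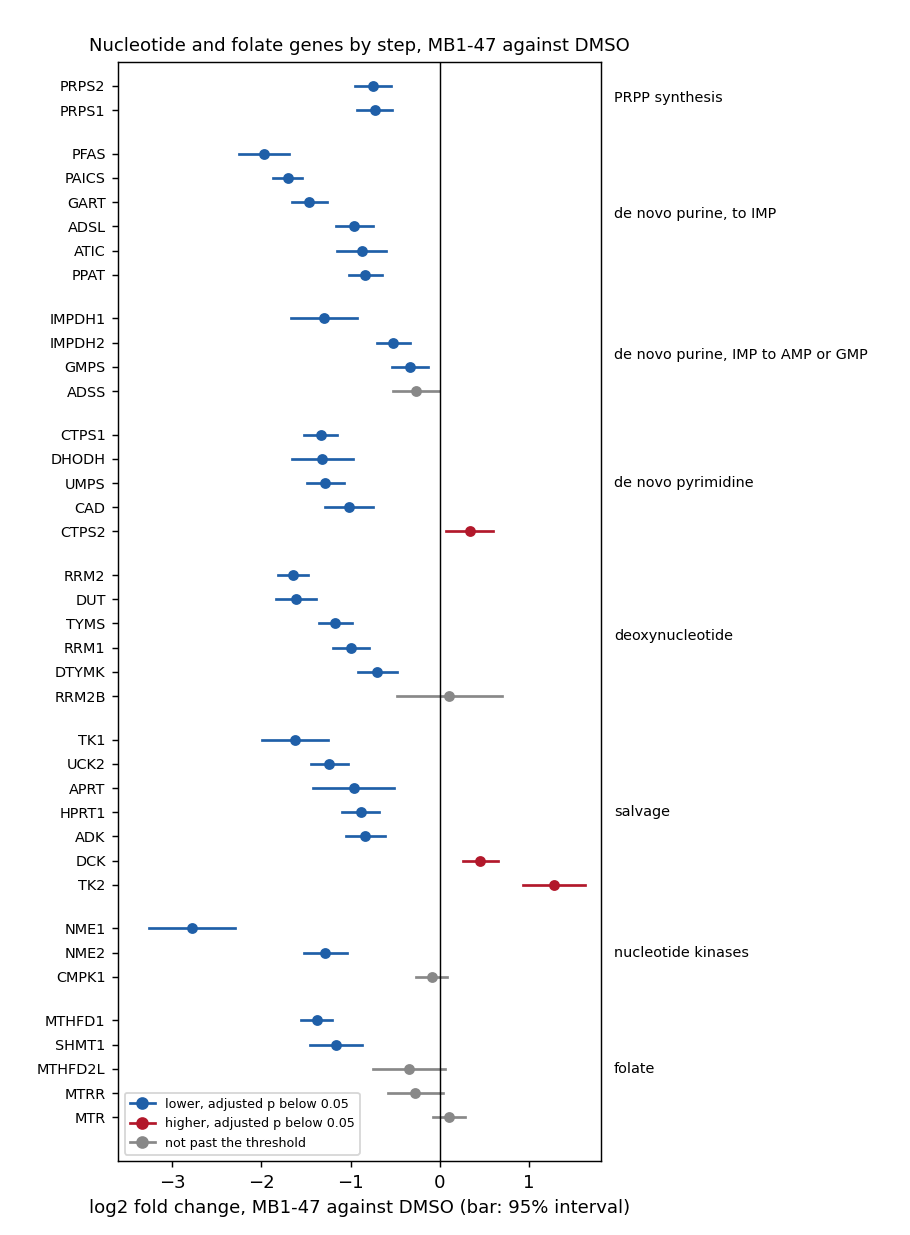
Log2 fold change of each of the 38 members, MB1-47 against DMSO, with its 95% interval from limma, grouped by step; each point is a gene over 3 libraries a group, coloured by its call. Most points lie left of the line at 0, and CTPS2, TK2 and DCK lie to the right past the threshold.

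The members together made up 0.825% ± 0.0228 (SD, n = 3) of all normalized counts in the DMSO libraries and 0.483% ± 0.00563 in the MB1-47 libraries. The 6 enzymes that build the purine ring held 0.241% ± 0.0097 with DMSO and 0.106% ± 0.00186 with MB1-47. The summed salvage enzymes moved least in proportion, from 0.109% ± 0.00328 to 0.0933% ± 0.00394, with DCK higher and most of the others lower. These are relative levels in bulk RNA, in which fewer cells of a kind, such as cells in S phase, and less RNA per cell cannot be told apart.

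Libraries of a group differed little in most members. The coefficient of variation of a member had a median of 8.62% among the DMSO libraries (2.11% to 37.9%) and 7.48% among the MB1-47 libraries (1.19% to 30.2%), with RRM2B and NME1 the most variable. Totals of normalized counts ran from 28323700 to 32667500 per library, and read depth is unknown. The second principal component over all genes tested (18.5% of the variance) had DMSO replicate 1 at 57.1 and the rest of its group at −40.3 and −31.8. That library had the highest DMSO value in 20 of the 38 members. The T-lineage markers fixed as a check were listed for 11 of 12 genes, with a sum of 86974 to 89874 normalized counts with DMSO and 53756 to 60790 with MB1-47. RAG1 was the largest part of that sum, with group means of 39256 with DMSO and 29637 with MB1-47. CD3D, CD3G, CD7, LCK, CD1A and RAG1 were lower past the threshold, and CD3E, CD247, CD5, CD2 and TLX3 did not pass. The T-cell surface markers CD5 and CD2 were low in the DMSO and MB1-47 group means, at 9.31 and 17.8 for CD5 and 49.2 and 33.8 for CD2. Among the 4 B-lineage markers, 3 were listed, nearly all of it CD79A, which is part of the B-cell receptor, and their sum was 15969 to 17118 with DMSO and 6427 to 7124 with MB1-47. Myeloid markers reached a mean of 10 in 0 of 4 genes. Of the erythroid markers 1 of 3 was listed, at a sum of 8.56 to 26.7 with DMSO and 17.3 to 31.7 with MB1-47, and of the epithelial and stromal ones 0 of 3. The part of these marker levels in the results was not tested.

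**Figure D2:**
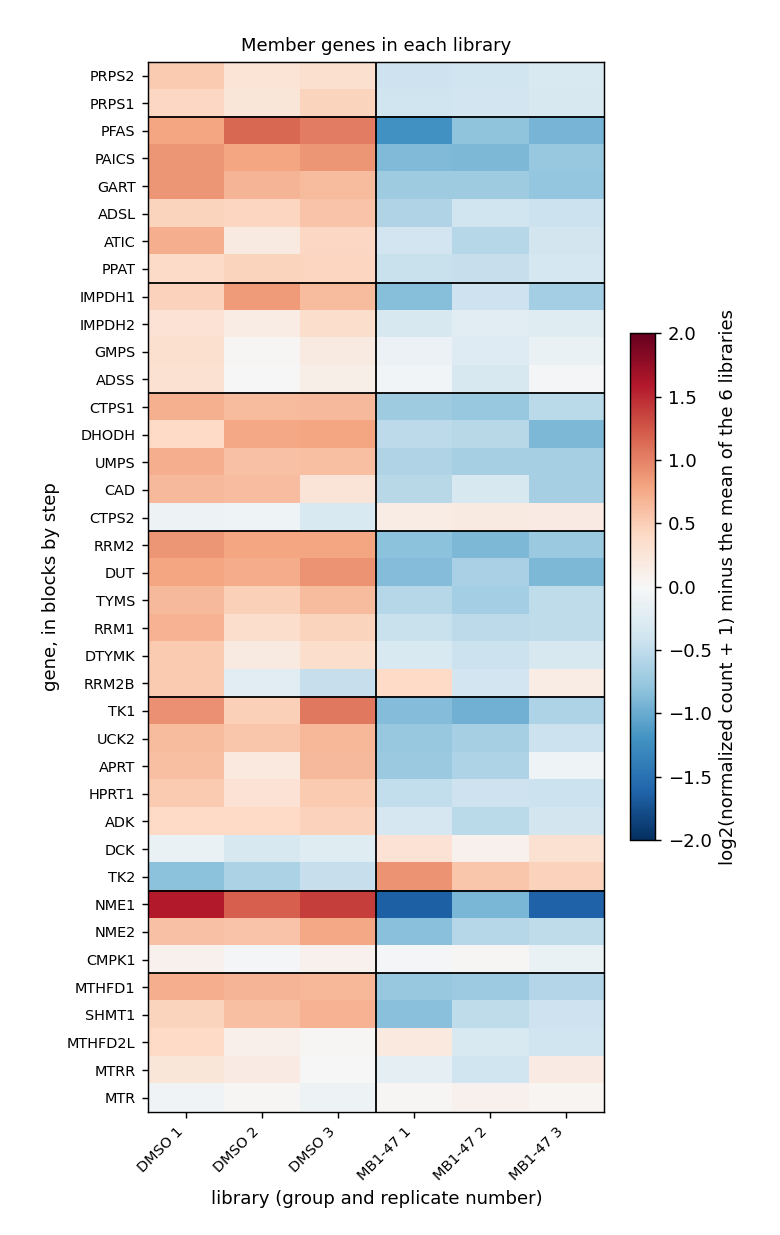
Each row is a member and each column a library; colour is log2(value + 1) minus the gene's mean over the 6 libraries, red above and blue below that mean. The DMSO columns are red and the MB1-47 columns blue in most rows, and TK2, DCK and CTPS2 show the opposite order. In MTR too, every MB1-47 library was above every DMSO library, with a change of 0.10.

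Both PRPP synthetases were lower. PRPS1 and PRPS2 make PRPP from ribose 5-phosphate and ATP, and lie on the X chromosome. PRPS1 had 5435, 4834 and 5536 normalized counts in DMSO replicates 1 to 3 and 3106, 3143 and 3266 in MB1-47 replicates 1 to 3, a log2 fold change of −0.73 ± 0.088 (SE; adjusted p = 7.99e-05). PRPS2 had 6738, 5679 and 5817 with DMSO and 3508, 3534 and 3797 with MB1-47, a change of −0.75 ± 0.093. The groups were apart in both genes, and the MB1-47 libraries lay close together. Their regulatory partners, the PRPP synthetase-associated proteins, moved the other way. PRPSAP1 had 925, 913 and 1050 normalized counts with DMSO and 2411, 1929 and 2179 with MB1-47 (1.17 ± 0.12, adjusted p = 2.80e-05), and PRPSAP2 rose by 0.56 ± 0.11.

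All 6 enzymes that build the purine ring to IMP were lower, with a median log2 fold change of −1.21. PPAT, the amidotransferase that commits PRPP to the pathway, had 4531, 4717 and 4676 normalized counts with DMSO and 2562, 2528 and 2720 with MB1-47 (−0.83 ± 0.084, adjusted p = 2.32e-05). This was the smallest fall of the 6. GART carries 3 reactions of the chain in a single protein and takes a carbon from formyl-folate. It had 13442, 11604 and 11207 normalized counts with DMSO and 4423, 4426 and 4261 with MB1-47 (−1.46 ± 0.088). GART lies at chr21:33503931-33543491 on the minus strand and overlaps SON on the other strand.

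PFAS, which adds a nitrogen from glutamine, fell most among these 6 genes. It had 4502, 5739 and 5281 normalized counts with DMSO and 1125, 1484 and 1361 with MB1-47, a change of −1.97 ± 0.13 (adjusted p = 1.22e-06), or 3.91-fold. PAICS, whose carboxylase and synthetase activities follow, had 30859, 28857 and 30795 with DMSO and 9058, 8921 and 9830 with MB1-47 (−1.70 ± 0.075). The groups were far apart in both. PPAT, read from the other side of the same 125 bases, had the smaller change. The 95% intervals of the pair were −1.02 to −0.65 for PPAT and −1.87 to −1.54 for PAICS; the difference between the genes was not tested. GENCODE names 7 pseudogenes for PAICS, so part of its reads may be shared with copies.

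ADSL, which removes fumarate in this chain and again on the way to AMP, had 4063, 4012 and 4410 normalized counts with DMSO and 1974, 2252 and 2213 with MB1-47 (−0.96 ± 0.095). ATIC closes the ring with a further folate carbon, and had 24795, 16818 and 19807 with DMSO and 11460, 10084 and 11560 with MB1-47 (−0.88 ± 0.13, adjusted p = 2.63e-04). DMSO replicate 1 was the highest by a wide gap in ATIC, and without it the change was −0.73. Every MB1-47 library was still below every DMSO library in both genes.

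Past IMP, 3 of 4 genes were lower, with a median of −0.43. IMP dehydrogenase leads to GMP and has a pair of isozymes. IMPDH1 had 849, 1110 and 954 normalized counts with DMSO and 342, 462 and 386 with MB1-47 (−1.29 ± 0.17, adjusted p = 1.29e-04). IMPDH2, the isozyme known to be induced in proliferating lymphocytes, had 8463, 7681 and 8807 with DMSO and 5565, 5925 and 5873 with MB1-47 (−0.52 ± 0.083, adjusted p = 5.29e-04). IMPDH1 has 7 pseudogenes named for it.

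GMPS, which aminates XMP to GMP, had 12327, 10060 and 11181 normalized counts with DMSO and 9135, 8329 and 9057 with MB1-47 (−0.34 ± 0.091, adjusted p = 0.0129). The groups were apart, but without DMSO replicate 1 the adjusted p was 0.0522. ADSS, which takes IMP toward AMP, had 4065, 3262 and 3558 with DMSO and 3177, 2626 and 3259 with MB1-47. The groups of ADSS nearly touched, and its change of −0.27 (95% interval −0.52 to −0.0089) had an adjusted p of 0.097.

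The pyrimidine steps were lower in 4 of 5 genes, with a median of −1.28, and CTPS2 went the other way. CAD joins the opening activities of the pathway in a single protein. It had 10016, 9772 and 7604 normalized counts with DMSO and 4332, 5126 and 4037 with MB1-47 (−1.02 ± 0.12, adjusted p = 8.18e-05). DHODH, the step on the inner mitochondrial membrane that passes its electrons to ubiquinone, had 1280, 1655 and 1682 with DMSO and 674, 658 and 520 with MB1-47 (−1.31 ± 0.16, adjusted p = 6.83e-05). UMPS, which attaches PRPP and yields UMP, had 3928, 3555 and 3600 with DMSO and 1563, 1492 and 1489 with MB1-47 (−1.28 ± 0.093). The groups were well apart in all of these.

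CTP synthase turns UTP into CTP and has a pair of isozymes that moved in opposite directions. CTPS1, known to be needed for the expansion of activated lymphocytes, had 10073, 9524 and 9593 normalized counts with DMSO and 3750, 3635 and 4199 with MB1-47 (−1.34 ± 0.085, adjusted p = 1.08e-06). CTPS2 had 954, 963 and 834 with DMSO and 1140, 1167 and 1154 with MB1-47 (0.33 ± 0.12, adjusted p = 0.046). The rise of CTPS2 was small and near the threshold. It did not pass without any one of the 6 libraries (adjusted p from 0.0581 to 0.148), although its groups did not overlap. CTPS1 lies at chr1:40979335-41012565 and CTPS2 at chrX:16588003-16712936.

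The deoxynucleotide genes were lower in 5 of 6, with a median of −1.08. RRM1 is the large subunit of ribonucleotide reductase and RRM2 the small subunit that cells make in S phase. RRM1 had 18370, 14541 and 15542 normalized counts with DMSO and 8325, 7888 and 7986 with MB1-47 (−0.99 ± 0.093). RRM2, at chr2:10120698-10131419, had 16813, 15726 and 15770 with DMSO and 5180, 4857 and 5423 with MB1-47 (−1.64 ± 0.078, adjusted p = 3.25e-07). The fall was 3.13-fold for the S-phase subunit RRM2 and 1.99-fold for RRM1, and no library of a group reached the range of the other.

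RRM2B is the p53-inducible small subunit, which supplies deoxynucleotides outside S phase. It had 877, 523 and 440 normalized counts with DMSO and 802, 464 and 674 with MB1-47. The groups overlapped fully, and replicate 1 was high in both. Its change of 0.10 (95% interval −0.48 to 0.69, adjusted p = 0.79) spans a moderate rise and a moderate fall, and it was −0.10 without DMSO replicate 3 and 0.39 without DMSO replicate 1.

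TYMS makes thymidylate with a folate carbon and is the target of fluorouracil. It had 13254, 11808 and 13059 normalized counts with DMSO and 5716, 5281 and 5935 with MB1-47 (−1.17 ± 0.084, adjusted p = 2.08e-06). Its locus overlaps TYMSOS and ENOSF1 on the other strand. DUT removes dUTP before it can enter DNA and provides the substrate of TYMS. It had 5500, 5315 and 5938 with DMSO and 1752, 2037 and 1707 with MB1-47 (−1.61 ± 0.10), and 8 pseudogenes are named for it. DTYMK, the next kinase toward dTTP, fell by 0.70 on the log2 scale (adjusted p = 2.33e-04), the smallest of these falls.

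Of the 7 salvage genes, 5 were lower and 2 higher. The deoxynucleoside kinases divided by gene. TK1, the cytosolic thymidine kinase of S-phase cells, had 1751, 1297 and 1928 normalized counts with DMSO and 510, 480 and 610 with MB1-47 (−1.62 ± 0.17, adjusted p = 2.68e-05). TK2, its mitochondrial counterpart that serves mitochondrial DNA, had 470, 537 and 604 with DMSO and 1554, 1217 and 1149 with MB1-47 (1.28 ± 0.16, adjusted p = 9.27e-05). The groups were apart in both genes, in opposite order. DGUOK of the wider list, also a mitochondrial deoxynucleoside kinase, was lower (−0.34 ± 0.11, adjusted p = 0.0239). TK1 lies at chr17:78174075-78187233 and TK2 at chr16:66508003-66552544. The TK2 locus overlaps annotated genes on both strands.

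DCK phosphorylates deoxycytidine and also activates cytarabine and nelarabine. It had 11888, 10423 and 11025 normalized counts with DMSO and 15838, 13785 and 16070 with MB1-47 (0.45 ± 0.087, adjusted p = 0.0018). All MB1-47 libraries were above all DMSO libraries. DCK stayed past the threshold under every alternative that was run. Its locus overlaps MOB1B on the same strand.

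The base and ribonucleoside salvage enzymes were all lower. HPRT1 and APRT rejoin purine bases to PRPP. HPRT1 fell by 0.89 on the log2 scale (adjusted p = 3.07e-05). APRT had 798, 605 and 827 normalized counts with DMSO and 315, 343 and 497 with MB1-47 (−0.96 ± 0.21, adjusted p = 0.00345). ADK, the adenosine kinase, changed by −0.84 ± 0.099. UCK2, the uridine-cytidine kinase of proliferating cells, had 12701, 12090 and 13079 with DMSO and 4847, 5197 and 6068 with MB1-47 (−1.24 ± 0.094). The groups were apart in all 4.

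NME1 had the largest fall of the 38 members, and was the 64th lowest of all genes tested. NME1 and NME2 are nucleoside diphosphate kinases, which make the triphosphates, and lie next to each other on chr17 (NME1 at chr17:51153536-51162428, NME2 at chr17:51165435-51171747). NME1 had 1301, 989 and 1125 normalized counts with DMSO and 139, 228 and 140 with MB1-47 (−2.78 ± 0.22, adjusted p = 4.23e-06). NME2 had 4573, 4497 and 5188 with DMSO and 1712, 2038 and 2129 with MB1-47 (−1.28 ± 0.11). A read-through transcript spans both genes and shares their sequence, so the division of reads among the 3 is uncertain. The read-through had 175, 279 and 146 with DMSO and 0, 49.9 and 61.8 with MB1-47. The sum of the 3 was 6091 ± 349 (SD) with DMSO and 2166 ± 273 with MB1-47, which leaves 35.6% and does not depend on that division. CMPK1, the kinase of CMP and UMP, did not pass, at −0.09 (95% interval −0.27 to 0.085, adjusted p = 0.40), and was at 0.04 with equal library totals.

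Of the 5 folate genes, 2 were lower and 0 higher, with a median of −0.35. Cytosolic SHMT1, which loads the carbon of serine onto folate, had 2326, 2572 and 2760 normalized counts with DMSO and 954, 1197 and 1281 with MB1-47 (−1.17 ± 0.13, adjusted p = 4.92e-05). Cytosolic MTHFD1, which interconverts the folate carbon units and feeds purines and thymidylate, had 11145, 10800 and 10677 with DMSO and 3998, 4054 and 4491 with MB1-47 (−1.38 ± 0.081, adjusted p = 7.77e-07). Its locus, chr14:64388031-64463457, overlaps ZBTB25 on the other strand. In both genes the groups were far apart.

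The other 3 folate genes did not pass. Mitochondrial MTHFD2L had 883, 721 and 684 normalized counts with DMSO and 767, 541 and 509 with MB1-47 (−0.35, 95% interval −0.75 to 0.058, adjusted p = 0.16), and replicate 1 was the highest in both groups. Without MB1-47 replicate 1 it was −0.53 with an adjusted p of 0.0417. MTR, the methionine synthase that returns methyl-folate to the pool, had 4166, 4443 and 4100 with DMSO and 4481, 4638 and 4523 with MB1-47. Its groups did not overlap, but the change was 0.10 (95% interval −0.077 to 0.28, adjusted p = 0.35), and 0.23 with equal library totals (adjusted p = 0.0491). MTRR, which reactivates MTR, had 2703, 2556 and 2273 with DMSO and 2010, 1733 and 2549 with MB1-47 (−0.27, adjusted p = 0.15). Only MB1-47 replicate 3 reached the DMSO range of MTRR, and without it the change was −0.42 (adjusted p = 0.0304).

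Paired enzymes of the same reaction were compared through the log2 ratio of their values within each library, for 9 pairs. With 3 libraries against 3, the exact two-sided permutation test cannot go below p = 0.1, so no pair could pass 0.05. In 8 pairs the groups did not overlap, each with exact p = 0.1 (0.1125 adjusted over the 9 pairs). Of single genes tested, 49.3% had groups that did not overlap, and the share among ratios of other genes was not computed. The ratio of TK1 to TK2 was 1.90, 1.27 and 1.67 with DMSO and −1.60, −1.34 and −0.91 with MB1-47, a difference of −2.90 ± 0.27 (SE) on the log2 scale and the largest of the 9. RRM2 over RRM2B shifted by −1.75 ± 0.34, CTPS1 over CTPS2 by −1.67 ± 0.091 and NME1 over NME2 by −1.50 ± 0.26. IMPDH1 over IMPDH2 shifted by −0.77 ± 0.19. PRPS1 over PRPS2 was the exception, at 0.02 ± 0.072 with overlapping groups (exact p = 0.9).

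The cytosolic folate enzymes SHMT1 and MTHFD1 were also set beside a mitochondrial partner each. These pairs do not cover all mitochondrial folate genes. MTHFD2L did not pass, nor did MTHFD2 (0.32, adjusted p = 0.0744, groups overlapping), and the carrier SLC25A32 was lower. SHMT2, the mitochondrial partner of SHMT1, had 4177, 4405 and 4360 normalized counts with DMSO and 5561, 6087 and 5527 with MB1-47 (0.41 ± 0.082, adjusted p = 0.00251), while SHMT1 fell. The ratio of SHMT1 to SHMT2 shifted by −1.57 ± 0.14. MTHFD1L, a mitochondrial relative of MTHFD1, did not pass (−0.18, adjusted p = 0.28), and the ratio of MTHFD1 to MTHFD1L shifted by −1.20 ± 0.11. UCK1, the isozyme of UCK2, did not pass either (0.08, adjusted p = 0.81), and the ratio of UCK1 to UCK2 rose by 1.32 ± 0.29.

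**Figure D3:**
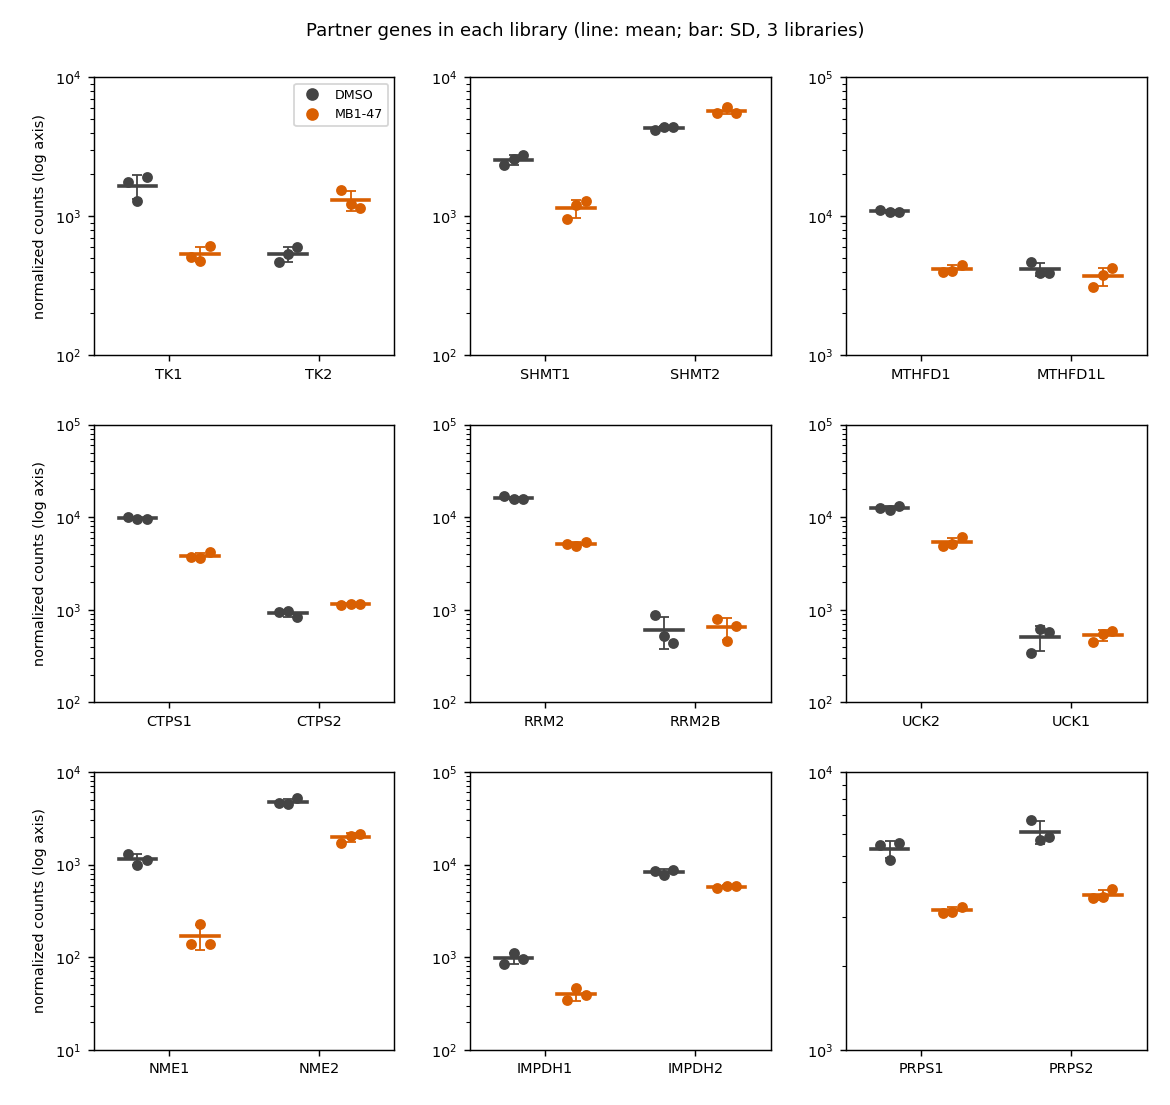
Normalized counts (log axis) of both genes of each of the 9 pairs; each point is a library, grey for DMSO and orange for MB1-47, each line a group mean and each bar the SD over 3 libraries. TK1 and TK2, SHMT1 and SHMT2, and CTPS1 and CTPS2 move in opposite directions, and PRPS1 and PRPS2 fall alike in size, by 0.73 and 0.75 on the log2 scale.

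The other genes of these pathways, a list of 98 that includes transporters, breakdown enzymes, further kinases and the methionine cycle, gave calls in both directions. Of 75 that were tested, 44 did not pass the threshold, 23 were lower and 8 were higher. Their median was −0.23, and 19.8% of all genes tested were lower and 18.3% higher. In purine breakdown PNP, which splits inosine and guanosine, and ADA, which deaminates adenosine, were lower by −1.64 ± 0.15 and −1.56 ± 0.092. Loss of either is known to cause a deficiency of T cells. Among the enzymes that clear unwanted nucleotides, NUDT1 and DCTPP1 each changed by −1.54. NME4, a nucleoside diphosphate kinase of mitochondria, changed by −1.61, and AK9 rose by 0.98 ± 0.24.

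The transporters included large falls. SLC29A1, the equilibrative transporter ENT1 that carries nucleosides across the plasma membrane, had 5242, 5168 and 5567 normalized counts with DMSO and 798, 972 and 961 with MB1-47 (−2.55 ± 0.11, adjusted p = 1.85e-07). SLC29A3, the lysosomal relative, rose by 0.83 ± 0.20. SLC19A1, the reduced folate carrier that also imports methotrexate, had 2804, 3510 and 3096 with DMSO and 718, 755 and 798 with MB1-47 (−2.04 ± 0.12, adjusted p = 6.98e-07). Both plasma membrane carriers were lower in every MB1-47 library than in any DMSO library. SLC25A32, the mitochondrial folate carrier, changed by −0.52 ± 0.11.

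Other higher genes were DPYD, which starts the breakdown of uracil and fluorouracil (0.48 ± 0.084), and NT5C2, a cytosolic nucleotidase of IMP and GMP (0.45 ± 0.084). In glycine cleavage, GCSH and DLD were lower by −1.21 and −0.52. In the methionine cycle, which MTR feeds, AHCY and MAT2A were lower by −1.17 and −1.02. AHCYL2, a relative of AHCY, rose by 0.75 ± 0.11.

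**Figure D4:**
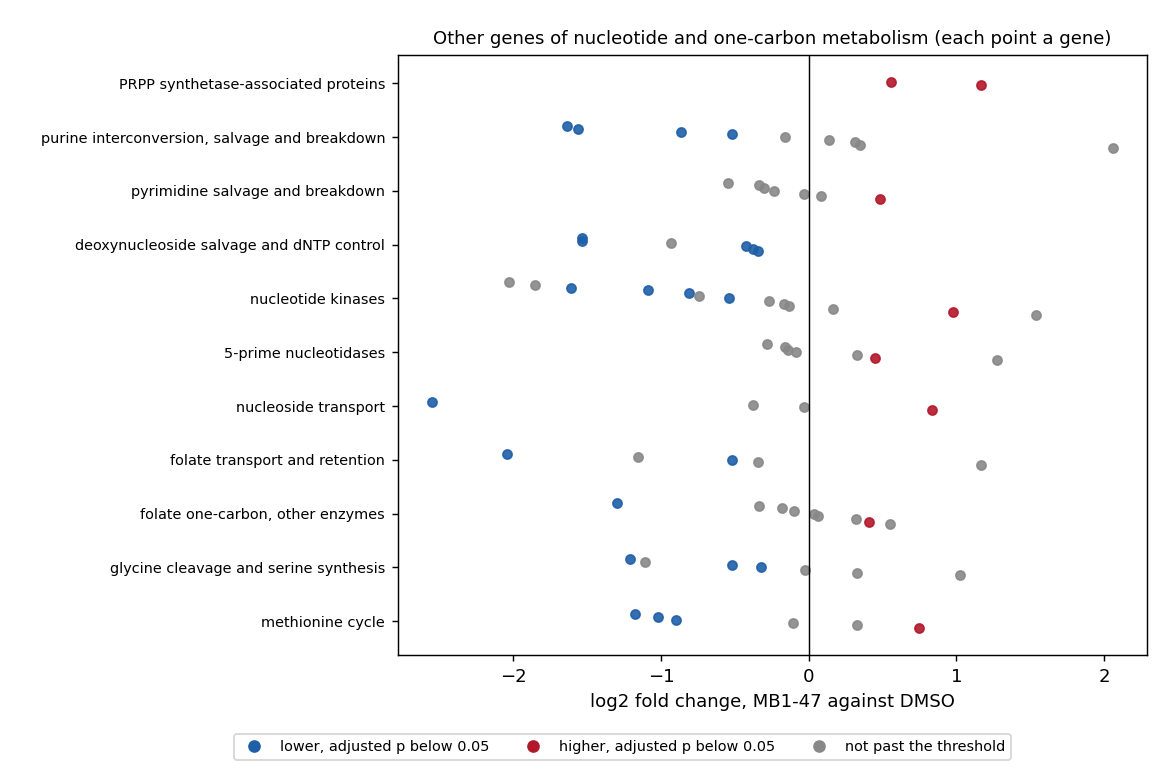
Log2 fold change, MB1-47 against DMSO, of the 75 tested genes of the wider pathways, by step; each point is a gene, blue where lower and red where higher at an adjusted p under 0.05. Blue points reach −2.55 (SLC29A1), and red points reach 1.17 (PRPSAP1).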

How the data were processed

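The table that the authors deposited gives a normalized count per gene symbol and library, a signal that is never negative and not whole. Per the submitters' processing notes, kallisto 0.44.0, DESeq and GRCh38.p13 were used; the annotation, the summing of transcripts and any use of strand in the estimates were not given in the sources used here. Reads of overlapping genes may therefore be shared, as 17 members overlap a gene on the opposite strand and 14 a gene on the same strand. Reads of near copies may be shared too, as 39 pseudogenes are named for 13 members. A search for the value of a single read placed 55.8% to 64.4% of a library's low values within 0.1 of a whole number of reads, too few to recover reads.

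Genes with a mean of at least 10 were taken as log2(value + 1), which understates the change of low genes, and fitted with limma 3.58.1 in R 4.3.3 (moderated test with an intensity trend, Benjamini-Hochberg over 13465 genes, threshold 0.05). Only the limma fit was tested on simulated data with known changes. The members and lists were chosen with earlier results of these data known. All members were named, with up to 2 risen and 2 fallen genes per step of the wider list (mean of at least 50), the partners of the pairs and the cell type markers; 2 further genes under this rule are not reported here. Alternatives were other pseudocounts, filters and scalings, no trend, a replicate block, and each library left out. Figures were drawn with matplotlib 3.10.9.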

Additional observations from a re-analysis of the deposited data

How the results depend on the processing

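Over 15 alternatives, 6 of them leaving out a library, 28 to 30 members were lower and 2 to 4 higher, and of the other pathway genes 16 to 24 were lower and 8 to 12 higher. The call held in every alternative for 32 of the 38 members. Of 570 member values, 14 had another call, in CTPS2, GMPS, ADSS, MTHFD2L, MTR and MTRR. CTPS2 did not pass with no filter on low values (adjusted p = 0.059) and GMPS did not pass without the intensity trend (0.0715). The median of the folate genes ranged from −0.53 (without MB1-47 replicate 1) to −0.22. Deviations of same-numbered libraries correlated weakly (0.022, 0.057 and 0.0072), and those of differently numbered libraries ran from −0.062 to 0.034. The labels do not say whether a replicate number marks a shared batch. With the replicate number as a block, 30 members were lower and 2 higher: ADSS passed (adjusted p = 0.0421) and CTPS2 did not (0.0561). The difference in the ratio of PRPS1 to PRPS2 changed sign without DMSO replicate 1, to −0.035, and ranged from −0.035 to 0.084 over the leave-one-out values; the cause was not tested. Depth is unknown, so no counting error is given.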
